A study of Mus musculus with 24 samples.

Results

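Serotonin receptors are the proteins through which neurons, glia and blood vessel cells sense serotonin. The 9 genes described here (Htr1a, Htr1b, Htr1f, Htr2a, Htr2c, Htr3a, Htr4, Htr6 and Htr7) were chosen by symbol, and are 9 of 14 serotonin receptor genes among the 54235 features of a mouse single-cell RNA-seq series. All 14 receptor genes were kept out of the clustering and of the marker lists, so that cells were grouped without them.

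Serotonin reaches the motor cortex and the striatum along axons of the raphe nuclei of the brain stem. Htr1a, Htr1b and Htr1f encode receptors that couple to inhibitory G proteins and lower cyclic AMP. Htr2a and Htr2c encode receptors that couple to Gq and release calcium from internal stores, and Htr4, Htr6 and Htr7 encode receptors that couple to stimulatory G proteins and raise cyclic AMP. Htr3a is the exception: it encodes a subunit of a cation channel that serotonin opens directly. In cortex it is a textbook marker of interneurons born in the caudal ganglionic eminence, and Htr1b is known as a receptor of axon terminals.

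The sequence upstream of the most 5′ annotated start is shown for the 4 members with the most UMIs among those with a promoter entry. They are Htr1b (high in spiny neurons), Htr1f (layer 6 neurons), Htr2a (layer 6b and spiny neurons) and Htr2c (near-projecting, Vip and spiny neurons). Each runs 5′ to 3′ on the strand of its gene, in GRCm38.p6 as given by RefSeq, with CG dinucleotides in capitals.
Htr1b, chr9:81633833-81634082, minus strand: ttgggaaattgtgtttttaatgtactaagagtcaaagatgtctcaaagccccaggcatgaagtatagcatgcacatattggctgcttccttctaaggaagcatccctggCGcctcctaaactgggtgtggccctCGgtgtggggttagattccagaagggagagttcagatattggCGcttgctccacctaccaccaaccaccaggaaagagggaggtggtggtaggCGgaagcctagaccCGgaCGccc
Htr1f, chr16:65105855-65106034, minus strand: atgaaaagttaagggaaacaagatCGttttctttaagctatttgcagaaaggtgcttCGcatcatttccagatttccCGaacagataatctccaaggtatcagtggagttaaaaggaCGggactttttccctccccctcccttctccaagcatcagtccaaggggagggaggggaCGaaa
Htr2a, chr14:74640624-74640839, plus strand: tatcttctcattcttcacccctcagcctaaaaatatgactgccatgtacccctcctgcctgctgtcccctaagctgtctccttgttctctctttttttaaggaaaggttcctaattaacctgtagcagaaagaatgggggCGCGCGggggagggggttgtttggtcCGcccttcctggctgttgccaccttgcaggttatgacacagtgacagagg
Htr2c, chrX:146962263-146962463, plus strand: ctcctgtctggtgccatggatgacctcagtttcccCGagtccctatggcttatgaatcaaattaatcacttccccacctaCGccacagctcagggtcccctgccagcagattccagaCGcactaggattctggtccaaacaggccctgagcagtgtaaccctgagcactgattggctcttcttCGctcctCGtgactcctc
These stretches of 250, 180, 216 and 201 bases held 6, 5, 4 and 5 CG dinucleotides. RefSeq promoter entries of 300 bases, 250 before to 50 after the start, were matched for 7 of the 9 members. Over all 32851 entries the median was 7 CG dinucleotides. Htr7 stood at the rich end with 46, more than 98.4% of entries, while Htr2c had 5 and Htr2a 6. The letters GGGCGG on either strand, present in 35.7% of all entries, were found for Htr1a, Htr1f, Htr2a and Htr6. The palindromes TGACGTCA (1.79% of entries), CACGTG (7.15%) and CAGCTG (16.3%), and TATAAA (13.6%), were found for none. A match, or its lack, describes these letters in this window only.

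In GRCm38, Htr1a is a gene of 1 exon on chromosome 13 (105443639 to 105448122). Htr1f lies on chromosome 16 (64924729 to 65105854), Htr2a on chromosome 14 (74640840 to 74709494), Htr2c on chromosome X (146962513 to 147197277), Htr4 on chromosome 18 (62324204 to 62496577), Htr6 on chromosome 4 (139061108 to 139075570) and Htr7 on chromosome 19 (35958734 to 36057507). Htr1b on chromosome 9 (81628291 to 81633828) and Htr3a on chromosome 9 (48899213 to 48911099) each overlap an antisense gene, D430036J16Rik and Gm32335.

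The motor cortex came from Fos-CreER::Ai9 mice and the dorsal striatum from Arc-CreER::Ai9 mice. In both lines an activity-regulated promoter drives a Cre that works only while 4-hydroxytamoxifen (4-OHT) is present, and Ai9 then makes the cell express tdTomato. Trained mice learned a forelimb reaching task for 2 days (early) or 8 days (late) and control mice were not trained. All groups, controls included, received 4-OHT, and tissue was taken 3 days after labelling. By the labels, each region had 6 pools of 2 mice, 2 per stage, and each pool gave 1 library per hemisphere. The hemispheres of a pool were summed, so n counts pools.

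The 23 libraries used, of 24, held 127901 barcodes and between 5260446 and 30470621 unique molecular identifiers (UMIs, 1 per captured transcript), and 98612 cells were kept. The right hemisphere of dorsal striatum control pool 1 was not analysed here. By the barcodes that libraries share, control pool 1 and late pool 1 of both regions form one class and the other 8 pools another. The classes are taken here as library chemistry, which the labels do not give per library. Titles name an M-numbered and an F-numbered mouse per pool. Motor cortex control pool 1 held 3 and 2 Xist UMIs in its 2 libraries beside 1823 and 374 of Y-linked genes. In motor cortex control pool 2 the right hemisphere held 21860 Xist and 2 Y-linked UMIs, and the left 3 and 6377. If M and F stand for sex, these counts go against the titles, and the libraries of pool 2 were not from the same 2 mice. Cortical stage contrasts set these controls against trained pools whose libraries all held both Xist and Y-linked UMIs. Without both motor cortex control pools 51 of 55 cortical calls by type that could still be tested were called.

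Clusters were named from textbook markers, and each name means cells "like" that type. In cortex 21 types and in striatum 19 had enough cells in at least 4 pools to be tested, 11 and 7 of them neurons. Neuroblast-like cells were counted with the other types. Levels are in CPM: UMIs of the gene per 1000000 UMIs of all genes in the cells of that type and pool. They are compared between types within a receptor, not between receptors. By the batch codes of the labels, control pool 1 shared a batch with late pool 1 of its region, and control pool 2 with early pool 1, while early pool 2 and late pool 2 were each in another. Pools of a stage thus differ in batch. With 6 pools in 4 batches, a fit with both stage and batch leaves no spread to test on. For stage and region, p-values measure the spread between pools. For types, hemispheres and reporter, where pool is a block, they measure the spread of differences within pools.

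**Figure D1:**
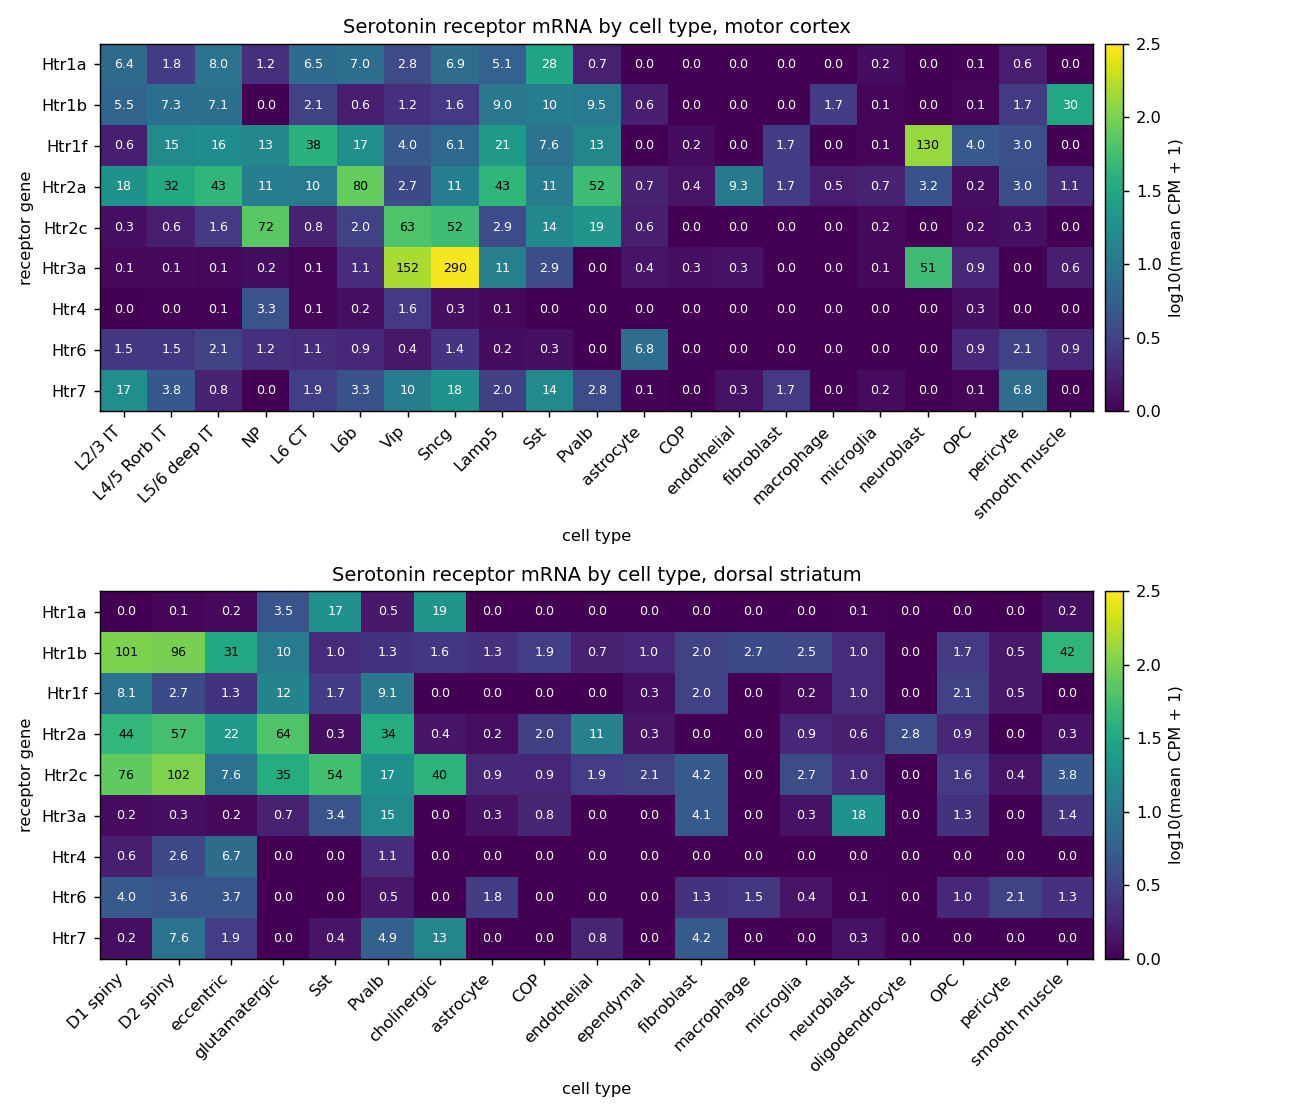
Mean CPM over pools for the 9 receptors in each tested cell type of motor cortex and dorsal striatum, with colour on a log10(CPM + 1) scale and the value printed. Htr3a reached 290.1 CPM in Sncg-like interneurons and Htr1b 101 CPM in D1-like spiny neurons, and most glial values were near 0.

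Most calls of a receptor above the mean of the other cell types were in neurons. Each type was tested against the mean log level of the other types (edgeR quasi-likelihood, Benjamini-Hochberg over all genes, called at an adjusted p under 0.05). In cortex, of 147 tests of the 7 receptors that passed the filter on low counts, 61 were called higher and 7 lower, against 34.1% and 18.5% over all genes. In neuron types 56 of 77 were higher, in the other types 5 of 70, where 39.3% and 28.3% of all genes were. In striatum 30 of 114 tests of 6 receptors were higher and 0 lower, against 32.4% and 18% over all genes, with 25 of 42 in neurons and 5 of 72 elsewhere (37.7% and 29.3% of all genes). Htr4 and Htr6 in both regions, and Htr7 in striatum, did not pass that filter.

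These counts depend on the reference. Apart from Htr2a in cortex, every receptor that passed the filter had at least 1 tested type with no UMI, and a level of 0 pulls a mean of logs down without limit. Each type was therefore also set against the summed UMIs of the other tested types of the same pools, a reference chosen after seeing the data and weighted by abundant cells. Against it 33 of 164 cortical tests were higher and 99 lower by edgeR (24.6% and 35.8% of all genes). In neuron types 30 of 88 were higher and 40 lower, against 25.3% and 33.7% of all genes in those types. In the other types 3 and 59 of 76 were, against 23.8% and 38.2%. In striatum 23 of 141 were higher and 94 lower (25.9% and 37.8%). Neuron types there had 22 higher and 29 lower of 57 (27.4% and 36.3% of all genes), and the other types 1 and 65 of 84 (25% and 38.8%). Of the 61 cortical higher calls 31 were again called higher and 19 lower, and of the 30 striatal ones 16 and 10. Differences from the summed other types, wherever given, come from this second reference.

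Htr3a, the channel subunit, was a gene of interneurons in cortex. They made up 9.25% of cortical cells and held 98.1% of its 3587 UMIs. Sncg-like interneurons, which include cholecystokinin basket cells, stood highest at 290.1 ± 79.2 CPM (SD, n = 6), with 263 and 197 in the control, 263 and 337 in the early, and 424 and 257 in the late pools. Vip-like interneurons had 152 ± 15.8 CPM, with 149.6 and 140.4 in the control, 165 and 128 in the early, and 159.8 and 169 in the late pools. The Sncg-like level was above the Vip-like one in 6 of 6 pools, by 0.91 log2 units (SE 0.09, edgeR adjusted p = 4.7e-16), where 22.4% of all genes were called. Lamp5-like interneurons, from the same embryonic source, held 11.2 ± 3.11 CPM. Pvalb-like interneurons had 0 UMIs in 171 cells.

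Within these interneurons Htr3a was concentrated in small sub-clusters. Sub-cluster 5, Sncg-like (261 cells, led by Sncg, Cadps2 and Crabp1), had 632 ± 95.7 CPM in 6 pools, and 90.8% of its cells held a UMI. Sub-cluster 7, Vip-like (222 cells, led by Crispld2 and Itih5), had 716 ± 143 CPM, between 556 and 886 in 5 pools. The other Vip-like and Sncg-like sub-clusters seen in at least 2 pools had means between 33.1 and 91.2 CPM. Values by sub-cluster are descriptions, with no test.

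In striatum the highest level of Htr3a was in GABAergic interneurons that no marker set named and that were not tested, at 118 ± 54.5 CPM. Among the tested types it was highest in neuroblast-like cells. These young neurons, such as those of the neighbouring subventricular zone, held 17.9 ± 8.27 CPM (26.5 and 14.7 in the control, 13.2 and 10.4 in the early, and 30.2 and 12.6 in the late pools). That was above the summed other types by 4.65 log2 units (SE 0.18, edgeR adjusted p = 4.0e-12), and the 8685 cells gave 43.1% of the striatal UMIs of Htr3a. Pvalb-like interneurons had 14.7 ± 5.58 CPM, Sst-like interneurons 3.36 ± 1.25, and cholinergic-like interneurons 0 UMIs in 228 cells.

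Htr2a, the Gq receptor through which classic psychedelics act, stood highest among the tested cortical types in layer 6b-like neurons, of a layer that derives from the subplate. They held 79.8 ± 13.7 CPM, with 78.1 and 76.1 in the control, 67.6 and 86.4 in the early, and 67.1 and 104 in the late pools. That was above Pvalb-like interneurons (51.5 ± 20.4 CPM, n = 4), the next tested type, by 0.95 log2 units (SE 0.23, edgeR adjusted p = 4.7e-04). Glutamatergic neurons that no marker set named, which were not tested, lay between them at 75.8 ± 6.86 CPM (n = 6). Pvalb-like, Lamp5-like (43.5 ± 10.1) and deep intratelencephalic-like neurons (42.8 ± 3.36) did not differ from one to the next beyond their spread. Layer 4/5 Rorb-like neurons followed at 32.1 ± 6.09 and layer 2/3-like neurons at 17.7 ± 6.13 CPM. The 3 named intratelencephalic types ranked from deep to superficial, with steps of 0.51 log2 units (SE 0.14, edgeR adjusted p = 0.001) and 0.87 log2 units (SE 0.15, edgeR adjusted p = 2.5e-07). Most of the unnamed glutamatergic cells lay outside this ranking. Their sub-cluster 5 (1461 cells, unnamed because it held markers of both layer 4/5 Rorb-like and layer 2/3-like neurons) had 84 ± 8.95 CPM of Htr2a, above the mean of each of the 3.

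The other tested deep neurons held little Htr2a. Layer 5 extratelencephalic-like neurons, with 72 cells, were too few to be tested. Layer 6 corticothalamic-like neurons had 9.84 ± 2.86 CPM, 8.02-fold below layer 6b-like cells (edgeR adjusted p = 5.2e-40, 30.6% of all genes called), and near-projecting-like neurons had 10.8 ± 4.27. Vip-like interneurons, at 2.67 CPM, stood at -2.84 log2 units against the summed other types (SE 0.24, edgeR adjusted p = 3.8e-12).

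In striatum Htr2a was shared by both spiny projection neuron types and Pvalb-like interneurons. D2-like spiny neurons, of the indirect pathway, had 56.6 ± 13.3 CPM, with 54.3 and 55.6 in the control, 52 and 78.1 in the early, and 37.6 and 62.1 in the late pools. D1-like spiny neurons, of the direct pathway, had 44.4 ± 10.6 CPM, with 42 and 40.8 in the control, 38.1 and 60.3 in the early, and 31.6 and 53.8 in the late pools. The D1-like level was the lower in 6 of 6 pools, by a small margin (-0.39 in log2, SE 0.12, edgeR adjusted p = 0.019, 9.9% of all genes called). Pvalb-like interneurons had 33.9 ± 14.1 CPM and Sst-like interneurons 0.28, from 2 UMIs in 865 cells (edgeR adjusted p = 2.1e-23, 36.4% called). The few glutamatergic neurons of the striatal samples had 64.5 ± 26.5 CPM (n = 4).

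Htr2c, the other Gq receptor and one whose transcript is known to be edited, was distributed differently in cortex. Near-projecting-like neurons held 71.8 ± 29.8 CPM, with 47.8 and 67.9 in the control, 56.5 and 101 in the early, and 42.5 and 116 in the late pools. Vip-like interneurons held 63.2 ± 15 and Sncg-like interneurons 51.9 ± 8.75 CPM. Neighbours in this order did not differ beyond their spread, while the first exceeded the third by 0.43 log2 units (SE 0.18, edgeR adjusted p = 0.049). Pvalb-like interneurons came next at 19.2 ± 9.95 CPM (n = 4), a called step of 1.41. Layer 6 corticothalamic-like neurons had 0.761 CPM, 76.4-fold below near-projecting-like cells (edgeR adjusted p = 1.4e-42, 41.7% called). The near-projecting-like cells were themselves divided: sub-cluster 8 (603 cells, led by Kcnip1 and Trhr) had 101 ± 42.6 CPM and sub-cluster 11 (492 cells, led by Slc17a8 and Nxph1) 35.5 ± 11.7, each in 6 pools.

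In striatum spiny neurons held 87.1% of the 10075 Htr2c UMIs. D2-like cells had 102 ± 23.4 CPM, with 82.4 and 131 in the control, 126 and 111 in the early, and 74.6 and 90.5 in the late pools. D1-like cells had 76.2 ± 17.7 CPM, with 58.7 and 91.9 in the control, 91.1 and 88.1 in the early, and 50.8 and 76.4 in the late pools, the lower in 6 of 6 pools (-0.46 in log2, SE 0.10, edgeR adjusted p = 1.3e-04). Sst-like interneurons had 54 ± 19.9 and cholinergic-like interneurons 40 ± 16.3 CPM. Eccentric-like spiny neurons, named for a program that departs from the classic pathways, had 7.55 ± 1.27 CPM (n = 4), 17.6-fold below D2-like cells (edgeR adjusted p = 1.8e-30, 32.1% called).

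**Figure D2:**
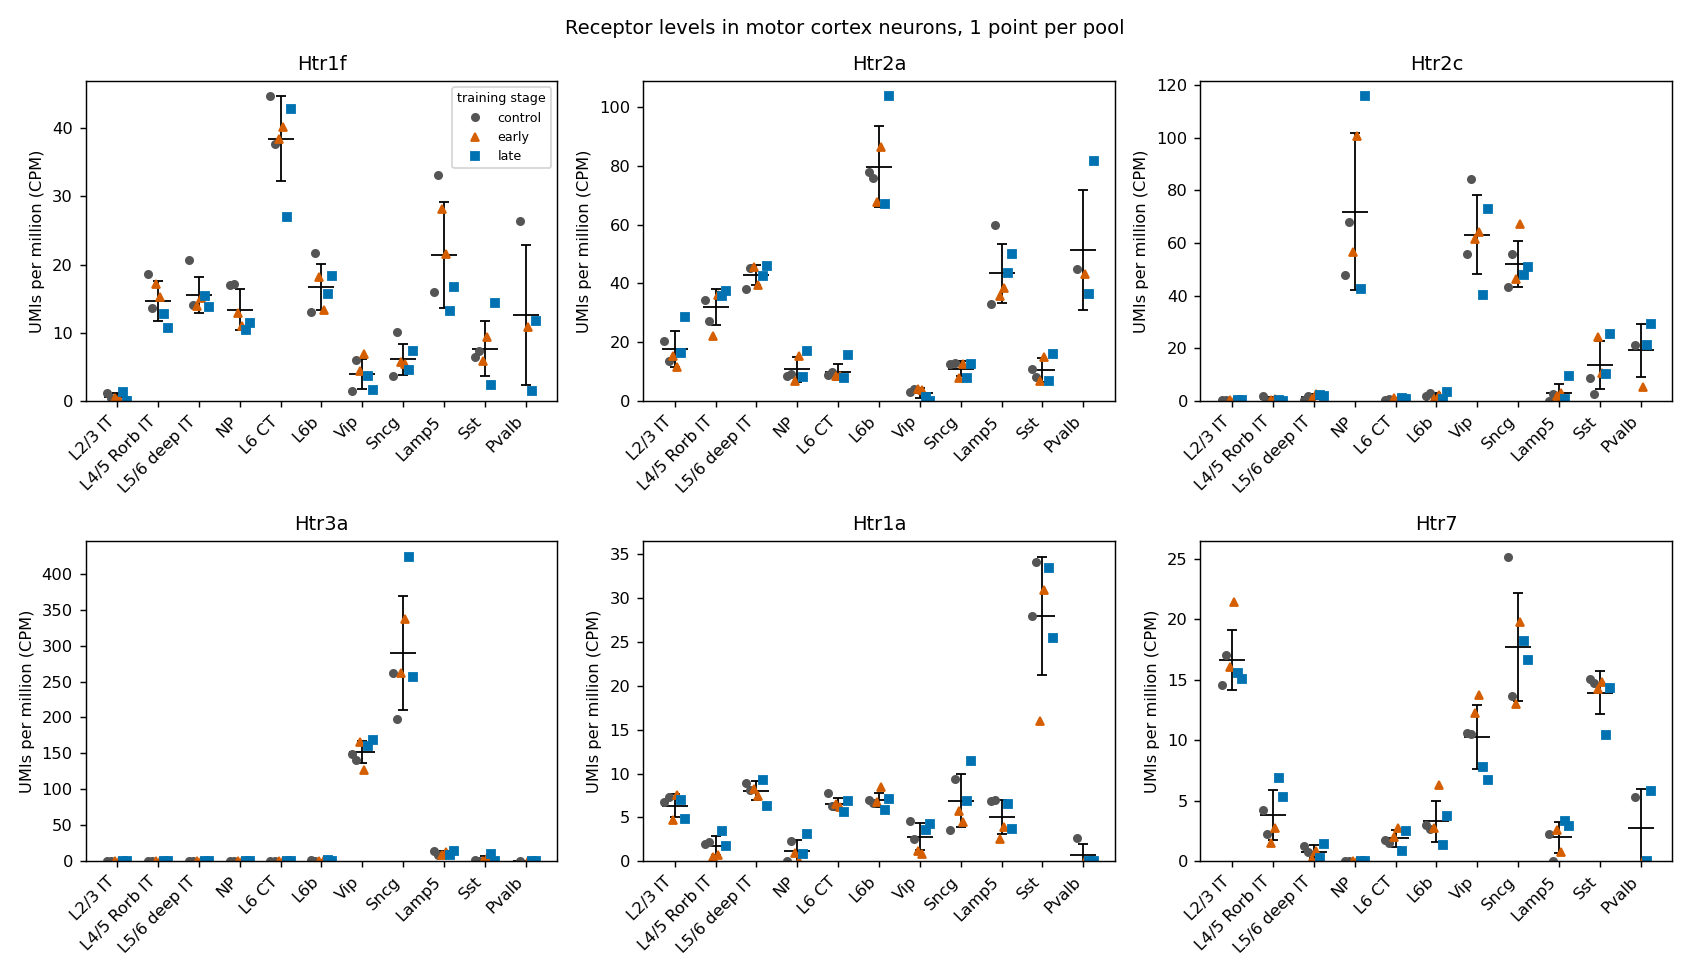
Receptor levels in motor cortex: CPM on the vertical axis for the cell types along the horizontal axis, with points for single pools and the mean and SD over pools. Layer 6b-like cells ranged from 67.1 to 104 CPM for Htr2a and Sst-like cells from 15.9 to 34.1 CPM for Htr1a.

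Htr1a, the inhibitory receptor that is also the autoreceptor of raphe neurons, was highest in Sst-like interneurons of cortex. They held 28 ± 6.75 CPM, with 27.9 and 34.1 in the control, 15.9 and 31 in the early, and 33.5 and 25.5 in the late pools. The next tested type, deep intratelencephalic-like neurons, had 8.05 ± 1.07 CPM, lower by 1.71 log2 units (SE 0.19, edgeR adjusted p = 1.5e-13). Layer 6b-like, Sncg-like, corticothalamic-like and layer 2/3-like neurons lay between 6.35 and 6.97 CPM, with no called step. Layer 4/5 Rorb-like neurons, at 1.76 ± 1.08 CPM, were below layer 2/3-like ones by 1.59 log2 units (edgeR adjusted p = 4.9e-08, 36.9% called). Pvalb-like interneurons, which like Sst cells arise in the medial ganglionic eminence, had 1 UMI, and the Sst-like level was the higher (edgeR adjusted p = 1.8e-10, 17.8% called).

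In striatum Htr1a was again found in Sst-like interneurons, with cholinergic-like cells beside them. Cholinergic-like interneurons had 18.6 ± 6.06 CPM, with 12.7 and 12.4 in the control, 23 and 19.4 in the early, and 16.1 and 27.8 in the late pools. Sst-like interneurons had 17.2 ± 6.15 CPM, with 9.42 and 10.7 in the control, 23.8 and 18.7 in the early, and 17.1 and 23.5 in the late pools. The 2 types did not differ beyond their spread (cholinergic-like minus Sst-like -0.08 in log2, SE 0.24, 35.3% of all genes called). Spiny neurons were almost without it, with 1 UMI in 8841 D1-like and 4 in 10330 D2-like cells.

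Htr1b, the terminal receptor, had 96.4% of its 10307 striatal UMIs in spiny neurons, which made up 41% of the cells. D1-like cells had 101 ± 30.1 CPM, with 69.5 and 119.9 in the control, 134 and 118 in the early, and 58.6 and 105 in the late pools. D2-like cells had 95.7 ± 28.5 CPM, with 66 and 104 in the control, 124 and 116 in the early, and 54.8 and 109 in the late pools. In both, the lowest pools were control 1 and late 1. They shared a batch and, by their barcodes, the other class of library chemistry, and batch and class cannot be told apart here. The pathways did not differ beyond their spread (D1 over D2 0.03 in log2, SE 0.07, edgeR adjusted p = 0.917). Eccentric-like cells had 30.7 ± 6.31 CPM (n = 4), 4.31-fold below D2-like cells and 4.41-fold below D1-like cells (edgeR adjusted p = 3.1e-30 for the latter, 33.2% called).

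The second site of Htr1b was smooth muscle-like cells of the blood vessel wall. In striatum they held 41.9 ± 24.8 CPM, with 25.5 and 48.6 in the control, 74.7 and 58.7 in the early, and 4.37 and 39.5 in the late pools. In cortex they held 30 ± 12.8 CPM, with 27.4 and 43.9 in the control, 27 and 43 in the early, and 8.92 and 30 in the late pools, and were the top type there, above Sst-like interneurons by 1.62 log2 units (SE 0.30, edgeR adjusted p = 1.8e-06). Late pool 1 was the lowest in both regions. Cortical neurons held less: Sst-like, Pvalb-like and Lamp5-like interneurons had 9.01 to 10.4 CPM, intratelencephalic-like neurons 5.55 to 7.25, corticothalamic-like neurons 2.1, and near-projecting-like neurons 0 UMIs in 1095 cells.

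Htr1f, the receptor of a class of migraine drugs, was highest among cortical neurons in layer 6 corticothalamic-like cells. They held 38.5 ± 6.21 CPM, with 44.7 and 37.7 in the control, 38.4 and 40.2 in the early, and 27 and 42.8 in the late pools. That was above Lamp5-like interneurons (21.4 ± 7.8 CPM) by 0.88 log2 units (SE 0.17, edgeR adjusted p = 6.2e-06), and above layer 6b-like neurons (16.7 ± 3.33) by 1.15. Layer 2/3-like neurons stood at 0.605 CPM, 21.1-fold below Rorb-like neurons (14.7 CPM, edgeR adjusted p = 2.5e-24). Neuroblast-like cells of cortex had a higher mean, 129.9 CPM, from 41 UMIs in 177 cells and between 0 and 242 in 4 pools.

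In striatum Htr1f differed between the output pathways. D1-like cells had 8.13 ± 2.18 CPM, with 5.9 and 11.6 in the control, 9.04 and 8.21 in the early, and 5.74 and 8.25 in the late pools. D2-like cells had 2.66 ± 1.01, the lower in 6 of 6 pools (D1 over D2 1.53 in log2, SE 0.18, edgeR adjusted p = 7.9e-11). Pvalb-like interneurons, at 9.06 ± 6.76 CPM, did not differ from D1-like cells beyond their spread, and cholinergic-like cells had 0 UMIs. The highest tested type was the few glutamatergic neurons of the striatal samples, between 4.44 and 18.4 CPM in 4 pools (24 UMIs in 221 cells). Cells of clusters that were given no name, which were not tested, held 19.5% of the 842 striatal UMIs of Htr1f in 4.45% of the cells.

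Of the receptors that raise cyclic AMP, Htr7 in cortex was found in Sncg-like interneurons at 17.7 ± 4.48 CPM, with 25.2 and 13.6 in the control, 13 and 19.8 in the early, and 18.2 and 16.6 in the late pools. Layer 2/3-like neurons had 16.6 ± 2.51 CPM, with 14.6 and 17.1 in the control, 16 and 21.4 in the early, and 15.6 and 15.1 in the late pools. Sst-like (13.9 ± 1.76) and Vip-like interneurons (10.3 ± 2.65) followed, while the first exceeded the last by 0.67 log2 units (SE 0.26, edgeR adjusted p = 0.049), in 6 of 6 pools, and no step between neighbours in this order was called. Among intratelencephalic types Htr7 was lower in Rorb-like (3.83 CPM) than in layer 2/3-like cells by 1.95 (edgeR adjusted p = 9.7e-13), and lower again in deep cells (0.787 CPM) by 2.35 (edgeR adjusted p = 4.7e-08, 41.6% called), an order opposite to that of Htr2a in these named types.

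In striatum Htr7 lay on one side of the pathways. D2-like cells held 7.65 ± 1.96 CPM from 363 UMIs, with 9.55 and 8.19 in the control, 7.23 and 9.7 in the early, and 4.46 and 6.76 in the late pools, while D1-like cells held 0.236 CPM from 8 UMIs. D1-like cells were lower in 6 of 6 pools, by 4.90 on the log2 scale in the fit with no filter (SE 0.28, edgeR adjusted p = 6.4e-68). Cholinergic-like interneurons had 12.6 ± 6.68 CPM, with 23.3 and 8.88 in the control, 7.67 and 9.69 in the early, and 7.44 and 18.5 in the late pools. Against the summed other types the D2-like and cholinergic-like levels were higher by 3.38 log2 units (SE 0.18, edgeR adjusted p = 1.1e-10) and 2.41 log2 units (SE 0.32, edgeR adjusted p = 2.7e-13).

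Htr4 was in few cells. In striatum eccentric-like spiny neurons had 6.72 ± 3.37 CPM from 36 UMIs in 4 pools, D2-like cells 2.58 ± 1.84 from 142 UMIs and D1-like cells 0.637 ± 0.451 from 29. The eccentric-like level was above the D2-like one in 4 of 4 pools, a difference that did not pass the test (0.83 in log2, SE 0.32, edgeR adjusted p = 0.074). Both were above the summed other types, the former by 2.52 log2 units (SE 0.37, edgeR adjusted p = 1.3e-09) and the latter by 2.47 log2 units (SE 0.22, edgeR adjusted p = 3.9e-08). In cortex near-projecting-like neurons (3.35 ± 2.55 CPM, 31 UMIs) and Vip-like interneurons (1.58 ± 1.44 CPM, 16 UMIs) were above the summed other types, by 4.44 log2 units (SE 0.46, edgeR adjusted p = 1.6e-20) and 2.71 log2 units (SE 0.57, edgeR adjusted p = 1.0e-05) in a fit with no filter. Layer 2/3-like neurons had 0 UMIs in 3137 cells.

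Htr6 had its highest cortical level in a glial type. Astrocyte-like cells had 6.77 ± 3.53 CPM from 46 UMIs in 3000 cells, with 0 and 7.26 in the control, 6.55 and 9.9 in the early, and 9.08 and 7.85 in the late pools. They were above the summed other types by 2.86 log2 units (SE 0.35, edgeR adjusted p = 7.6e-09). Control pool 1, at 0, had 104 astrocyte-like cells. In striatum Htr6 was spread over D1-like (4.04 ± 0.833 CPM), eccentric-like (3.69 ± 1.33) and D2-like cells (3.61 ± 0.692), and astrocyte-like cells had 1.79 ± 1.04.

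**Figure D3:**
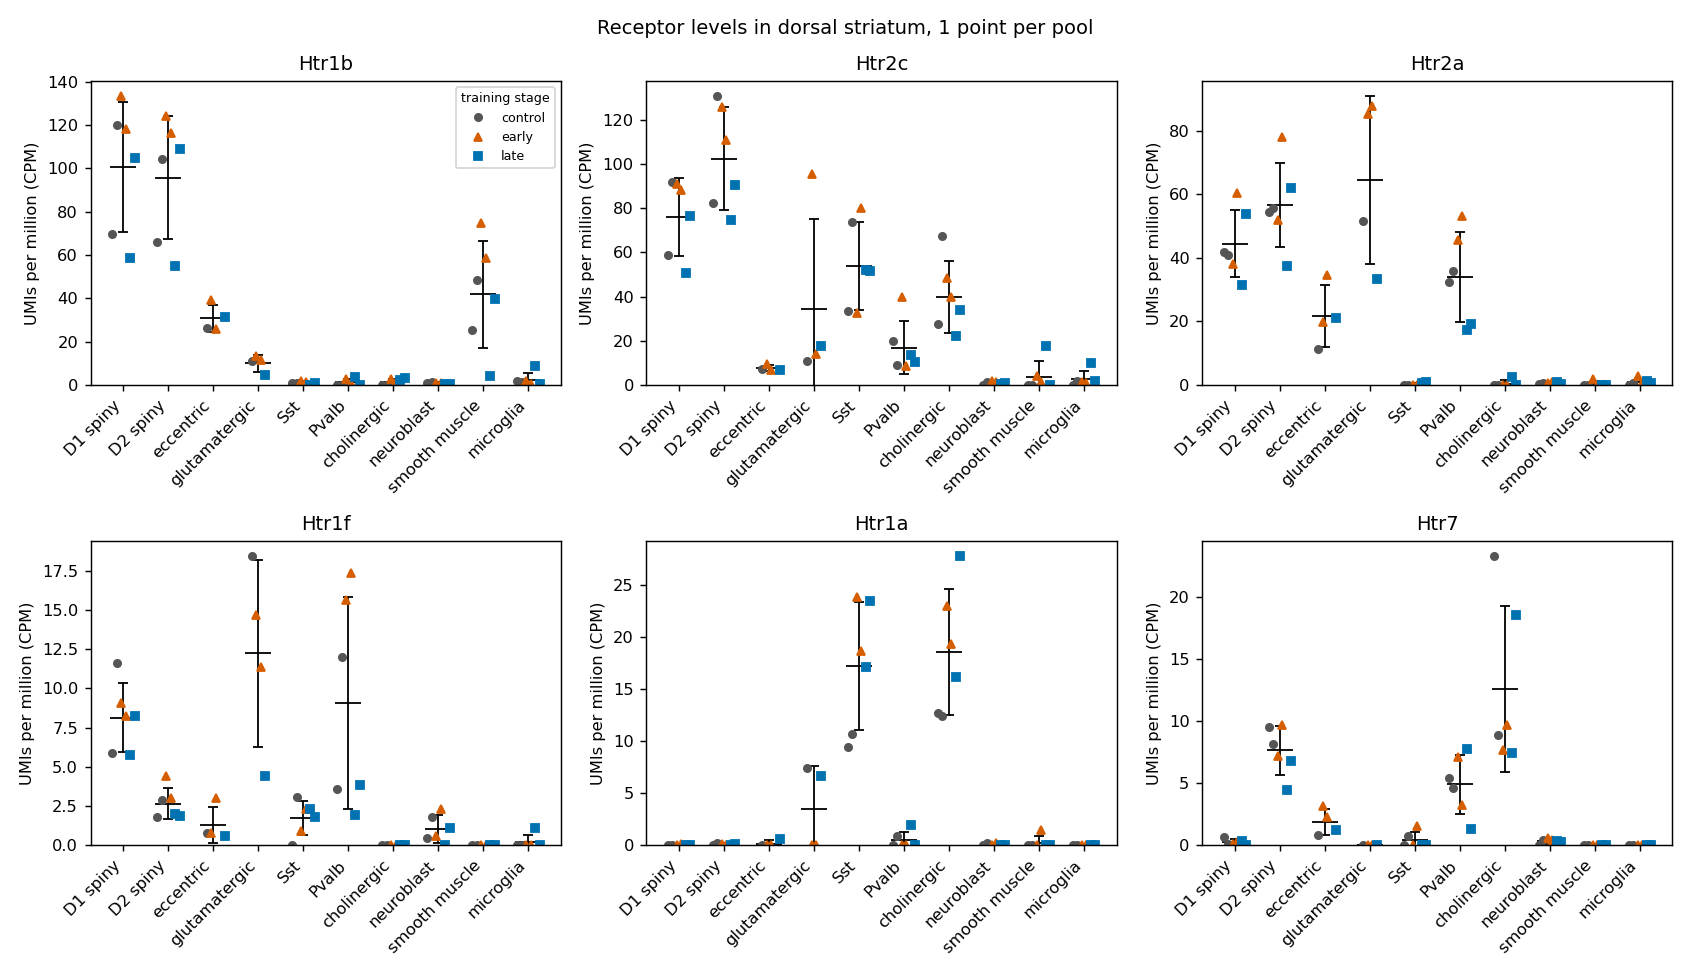
Receptor levels in dorsal striatum: CPM on the vertical axis for the cell types along the horizontal axis, with points for single pools and the mean and SD over pools. D1-like and D2-like cells overlapped for Htr1b and differed for Htr1f (8.13 against 2.66 CPM).

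The spiny neurons were not uniform. Among 13 sub-clusters of D1-like, D2-like and eccentric-like cells seen in at least 2 pools, 5 were above the median of these sub-clusters for Htr2a and below it for Htr1b, and 5 were the reverse. 0 were above both medians, eccentric-like sub-cluster 9 was below both (21.6 CPM of Htr2a and 30.7 of Htr1b), and 2 stood at a median. The medians were 41.5 and 78.3 CPM. These means are over the pools that held a sub-cluster. Sub-clusters 6, 8 and 12 had at least 20 cells only in control pool 1 and late pool 1, the pools lowest in Htr1b. Most cells of sub-clusters 4 (363 and 1395) and 5 (342 and 1406) came from these pools too. The counts of sub-clusters may thus hold the same kind of cell once for these pools and once for the others, which was not tested. Taken within each of the 6 pools, 35 of 50 pairs of values lay on opposite sides of that pool's medians, 5 above both, 6 below both and 4 at one. Sub-clusters 0, 2, 3 and 7, chosen after their values were seen, are given in full, of which sub-cluster 2 is itself the median of Htr1b. D2-like sub-cluster 2 (2362 cells, led by Parm1 and Unc5c) had 115 ± 17.7 CPM of Htr2a, between 99.1 and 135 in 5 pools, and 78.3 ± 23.7 of Htr1b. D2-like sub-cluster 7 (1564 cells, led by Nell1 and Nt5e) had 11.2 ± 1.88 CPM of Htr2a, between 8.6 and 13.6 in 5 pools, and 137 ± 26.3 of Htr1b. D1-like cells were divided likewise. Sub-cluster 3 (2126 cells, led by Baalc and Pdyn, the gene of the opioid dynorphin) had 88 ± 15.4 CPM of Htr2a and 73.1 ± 25.9 of Htr1b. Sub-cluster 0 (3547 cells, led by Lingo2 and Ebf1) had 23.1 ± 4.26 and 135 ± 12.1 CPM. The Htr2a ranges of sub-clusters 2 and 7, and of 3 and 0, did not overlap over pools. D1-like sub-cluster 4 (1838 cells, 4 pools) was low in Htr2a and near the median of Htr1b, with 12.7 CPM of Htr2a and 82 of Htr1b. Htr1f in D1-like cells was 13.8 ± 2.53 CPM in sub-cluster 0 and 2.66 ± 1.85 in sub-cluster 3.

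D2-like Htr7 was highest in sub-cluster 11 (303 cells, led by Cpne7, Nrip3, Agtr1a and Casz1). Casz1 is one of the markers used to name eccentric-like cells, though this sub-cluster was counted as D2-like. Sub-cluster 11 held 52.1 ± 4.47 CPM of Htr7, between 47.6 and 57.9 in 4 pools. Its mean Htr4 was also the highest of the spiny sub-clusters (13.3 ± 6.79 CPM). Sub-cluster 2 had 10.1 ± 6.5 CPM of Htr7, and sub-clusters 1 and 7 had 0.396 and 0.196. Sub-clusters 6, 8 and 12 lay in 2 pools each.

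**Figure D4:**
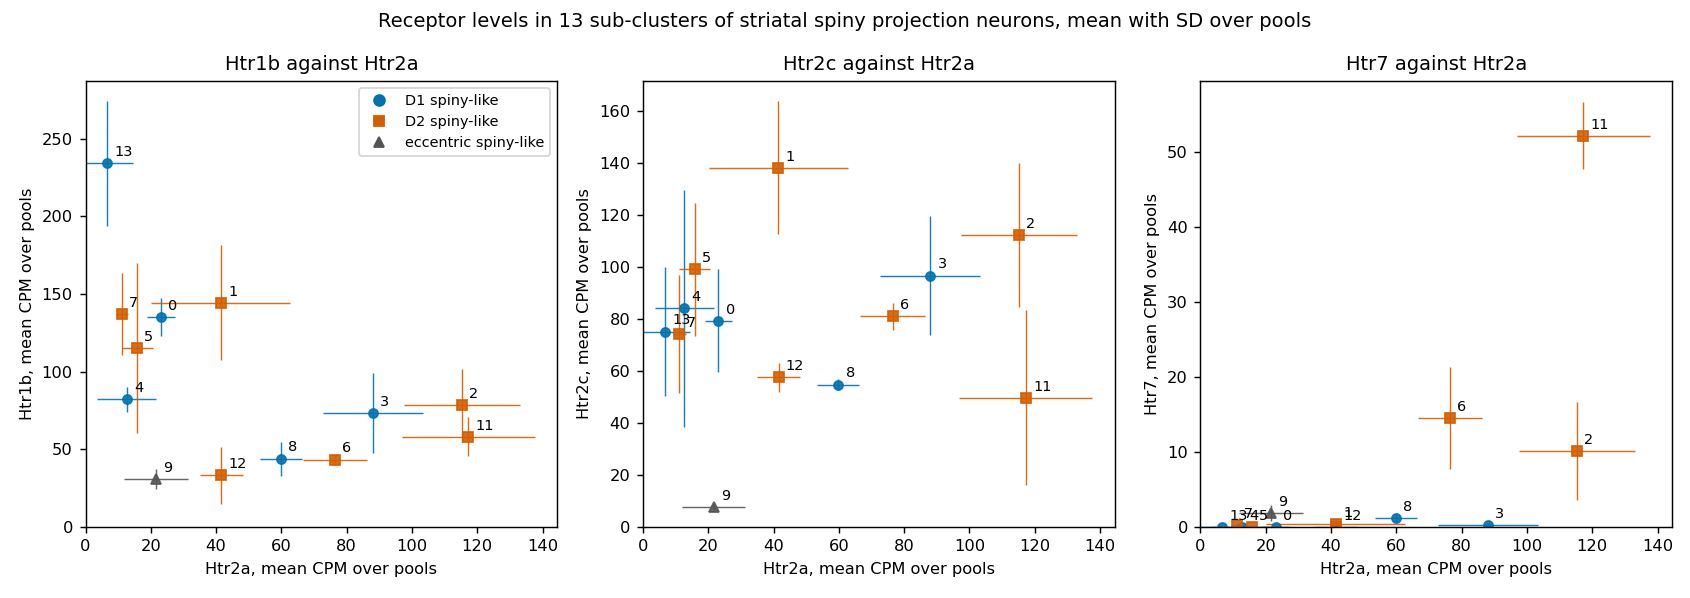
Mean CPM over pools in 13 sub-clusters of striatal spiny neurons (numbered points, bars SD over pools), with Htr1b, Htr2c and Htr7 on the vertical axes against Htr2a on the horizontal axis. Sub-clusters 0 and 7 were high in Htr1b and low in Htr2a, sub-clusters 2 and 3 were higher in Htr2a and lower in Htr1b than these, and sub-cluster 11 stood at 52.1 CPM of Htr7.

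Interneuron classes of cortex differed in several receptors at once. Lamp5-like cells were above Vip-like cells for Htr2a (14.6-fold), Htr1b (8.61-fold) and Htr1f (5.07-fold), and below them for Htr2c (21.5-fold), Htr3a (14.5-fold) and Htr7 (5.38-fold), each in 6 of 6 pools (31.4% of all genes called). Sncg-like cells had more Htr2a than Vip-like cells (1.87 on the log2 scale, edgeR adjusted p = 3.5e-06) and more Htr1a (1.51, edgeR adjusted p = 3.5e-04). Within Sst-like cells sub-cluster 13 (140 cells, led by genes including Chodl and Nos1) had 39.1 ± 14.2 CPM of Htr1a and 30.3 ± 5.54 of Htr7.

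Outside the neuron types, with neuroblast-like cells counted as outside, few types stood above the rest under both references. They were smooth muscle-like cells of cortex for Htr1b, neuroblast-like cells of cortex for Htr1f, neuroblast-like cells of striatum for Htr3a and, with no filter for the mean of logs, astrocyte-like cells of cortex for Htr6. The first exceeded the summed other types by 3.33 log2 units (SE 0.28, edgeR adjusted p = 1.7e-19), the next by 3.15 log2 units (SE 0.42, edgeR adjusted p = 5.8e-12). Smooth muscle-like cells of striatum, with spiny neurons in the reference, were at 0.13 for Htr1b (SE 0.18, edgeR adjusted p = 0.534). Endothelial-like cells held 9.29 ± 5.05 CPM of Htr2a in cortex and 11.4 ± 4.38 in striatum, called higher against the mean of logs and lower against the summed other types (-0.84 and -1.13 log2 units, edgeR adjusted p = 0.0091 and 3.1e-04). Microglia-like cells served as the background for RNA from other cells. In motor cortex their share with a UMI reached 0.118% (12 of 10172 cells for Htr2a), and in dorsal striatum 0.378% (19 of 5031 for Htr2c). A count of 0 allows up to 0.0295% in motor cortex and 0.0596% in dorsal striatum.

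Shares of neurons with a UMI lay above this background. In motor cortex 52.5% of Sncg-like cells held Htr3a (Wilson 95% interval 48.9 to 56), 53.5% of layer 6b-like cells Htr2a and 19.5% of Sst-like cells Htr1a. In dorsal striatum 34.7% of D1-like cells held Htr1b and 34% of D2-like cells Htr2c. Depth sets such shares, the median being 7843 UMIs in Sncg-like cells and 1820 in cortical microglia-like cells. With cells thinned to 1000 UMIs they were 20.8%, 8.11%, 2.59%, 9.04% and 9.57%, against at most 0.059% (motor cortex) and 0.179% (dorsal striatum) of microglia-like cells for any receptor. Astrocyte-like Htr6 in motor cortex was in 1.5% of cells, and 0.8% when thinned, against 0 of 10172 microglia-like cells. Intervals and limits cover counting error only.

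The genes whose levels over 40 type profiles were most like each member, of 20458 genes compared, are given with Pearson's r of log2 levels as a description, since the profiles share libraries and depth. For Htr1b it was its antisense neighbour D430036J16Rik (0.89). For Htr2a they were Kcnj4 (0.89), a potassium channel gene, and Ddn (0.88), and for Htr3a Bglap2 (0.90) and Dlx1as (0.88). For Htr1a it was Gm48393 (0.84), for Htr1f Kcnh7 (0.84), a potassium channel gene, for Htr2c Gm45297 (0.85), for Htr4 4930598N05Rik (0.88), for Htr6 Gm10855 (0.77) and for Htr7 Gm37056 (0.79).

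Training stage was the study's own comparison. No receptor was called in any type, with 0 of 41 tests in each of the 3 contrasts of cortex and 0 of 23 in each of those of striatum, by edgeR and by DESeq2. Over all genes the edgeR calls were rare too: 0.0134% (early over control), 0.0268% (late over control), 0.00893% (late over early) in cortex, and 0.0489%, 0.0311%, 0.0178% in striatum. The unadjusted edgeR p was under 0.05 in 2, 4, 2 cortical and 1, 4, 5 striatal tests. Fitted changes were under 2-fold in 39, 38, 39 cortical and 22, 21, 18 striatal tests, in the same order.

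For abundant pairs the differences from control are given with their standard errors, which with 2 pools a stage are themselves imprecise. Htr1b in D1-like cells was at 0.07 (SE 0.13) on the log2 scale in early and at -0.19 (SE 0.12) in late pools. Htr2a in layer 6b-like cells was at -0.11 (SE 0.23) and 0.19 (SE 0.21). Htr2c in D2-like cells was at -0.04 (SE 0.14) and -0.32 (SE 0.13), the latter with edgeR adjusted p = 0.763. Without striatal control pool 1, or without late pool 1, this last difference was -0.52 (edgeR adjusted p = 0.043 and 0.043). Those are the 2 striatal pools of their chemistry class, so the chemistry term then takes up the one that is left. The comparison rests on control pool 2 against late pool 2 alone (131 against 90.5 CPM), with the spread taken from the early pools.

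Some shifts that missed the threshold, chosen after their values were seen, are given as values. The largest fitted ones in each region were of Htr2c in cortical Sst-like interneurons (8.6 and 2.76 in the control, 24.3 and 10.8 in the early, and 10.4 and 25.5 in the late pools, at 1.86 early and 2.00 late against control, edgeR adjusted p = 0.999 and 0.995) and of Htr1f in striatal Pvalb-like interneurons (3.59 and 12 in the control, 15.6 and 17.4 in the early, and 1.93 and 3.86 in the late pools, late against early -1.95, edgeR adjusted p = 0.542). Htr2a in striatal Pvalb-like interneurons stood at 32.3 and 35.9 in the control, 45.5 and 53.1 in the early, and 17.4 and 19.3 in the late pools (late against early -1.37 in log2, SE 0.36, edgeR adjusted p = 0.265). Htr3a in cortical Sncg-like interneurons was at 0.73 early and 0.60 late against control, and the highest control pool and the lowest early pool both stood at 263 CPM (edgeR adjusted p = 0.810 and 0.948). Htr1a in striatal Sst-like interneurons, at 9.42 and 10.7 CPM in the control and 17.1 to 23.8 in the trained pools, was at 0.89 and 1.04 (edgeR adjusted p = 0.754 and 0.997). Within the batches that held a control and a trained pool, Htr2c in cortical Sst-like cells stood at 8.6 against 10.4 and 2.76 against 24.3 CPM, Htr3a in cortical Sncg-like cells at 263 against 424 and 197 against 263 CPM, and Htr1a in striatal Sst-like cells at 9.42 against 17.1 and 10.7 against 23.8 CPM, late and early in this order. No batch held both an early and a late pool of a region.

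**Figure D5:**
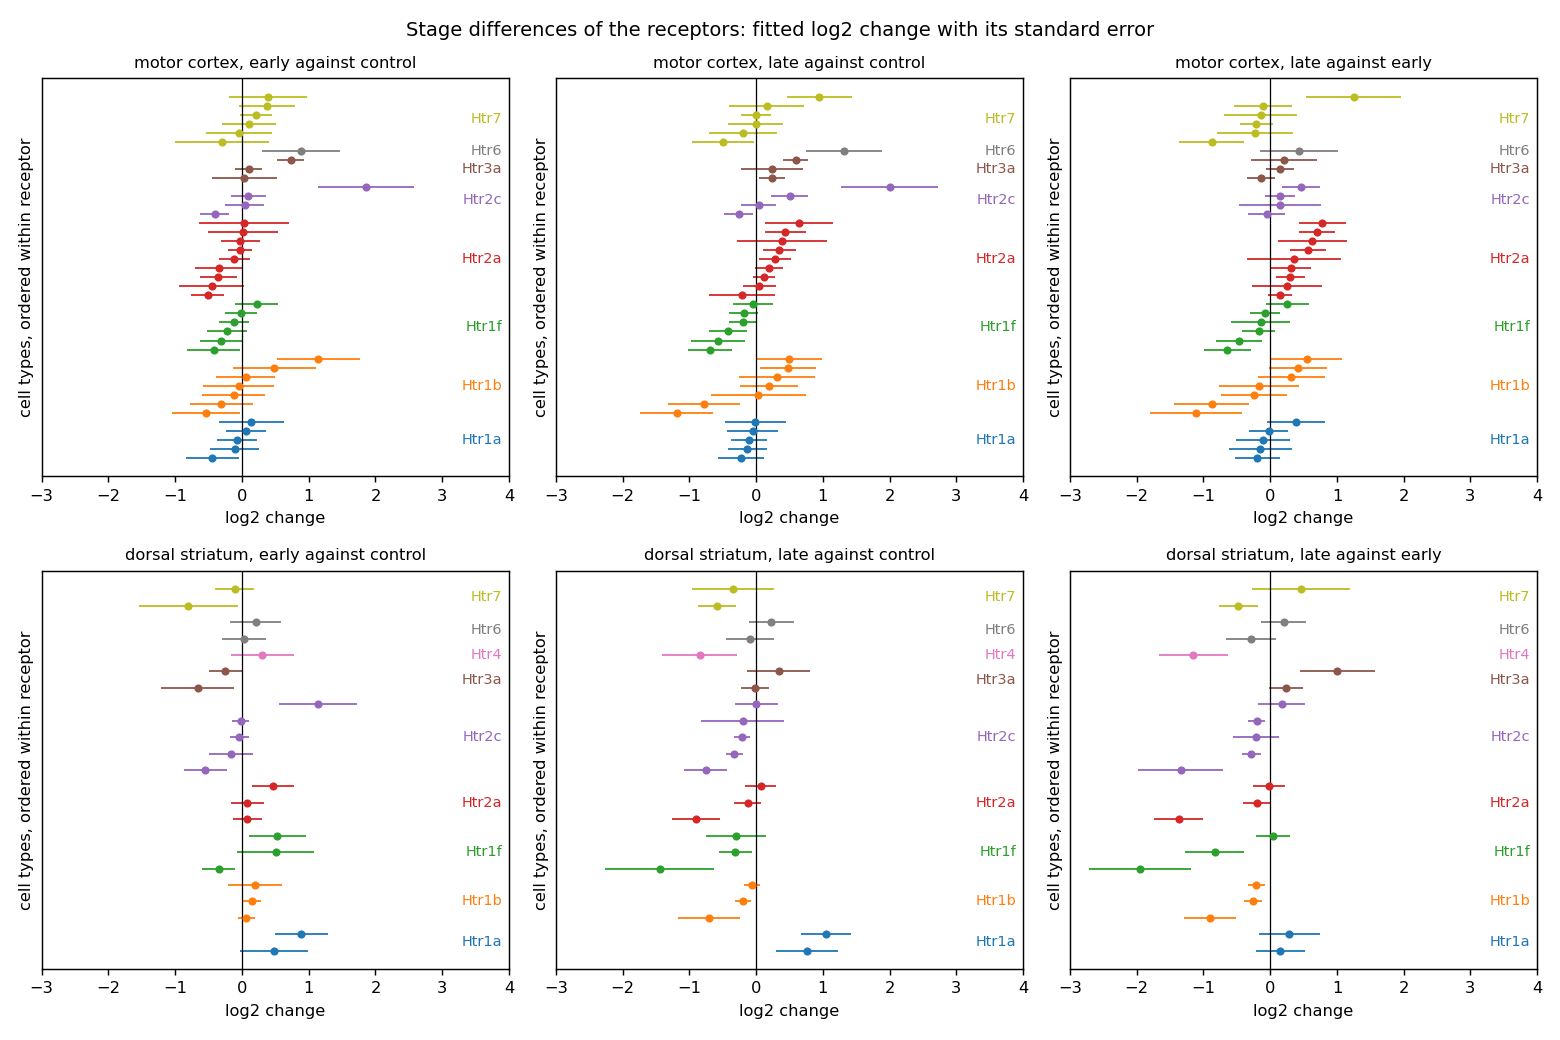
Fitted log2 change with its SE for each receptor in each tested type (points), for the 3 contrasts of stage in both regions. The medians lay between -0.21 and 0.14, and no point passed the threshold.

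No receptor was called by hemisphere or by reporter in the tests as set up, and 1 was with a stricter reporter rule. Contralateral against ipsilateral libraries of the trained pools gave 0 calls in 23 cortical and 17 striatal tests by edgeR and DESeq2 (0.026% and 0.0164% of all genes called by edgeR), with 1 unadjusted p under 0.05 in each region. Projection neurons with a UMI of tdtomato or wpre, an element of the reporter transcript, were set against cells of the same type and pool without one. They gave 0 calls in 16 cortical and 11 striatal tests by both tools (0.932% and 0.219% of all genes called by edgeR), with 4 and 1 unadjusted p under 0.05. Htr1a in deep intratelencephalic-like neurons was at -0.75 (SE 0.22, edgeR adjusted p = 0.117) and Htr7 in layer 2/3-like neurons at 0.42 (SE 0.15, edgeR adjusted p = 0.129). With at least 2 reporter UMIs asked of positive cells, Htr1b in D1-like cells was called higher in them by 0.28 log2 units (SE 0.06, edgeR adjusted p = 0.027). Reporter UMIs did not mark neurons alone: 27.2% of cortical endothelial-like cells had one, against 17% to 26.4% in the 5 cortical projection neuron types of this comparison.

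Between regions only types named alike in both could be compared, and region and driver line cannot be told apart. Of 4 tests 2 were called (8.9% of all genes over the types, 29% in Sst-like interneurons). A receptor could pass the filter on low counts through the region where it was higher, as Htr7 did through cortex. The share called thus says little about the receptors as a set, and the count with no filter is given further below. Sst-like interneurons had more Htr7 in cortex (13.9 against 0.387 CPM, 4.52 on the log2 scale, edgeR adjusted p = 4.4e-08) and less Htr2c (13.7 against 54 CPM, -2.17, edgeR adjusted p = 2.4e-06). The class held different cells in the 2 regions. All 4 striatal sub-clusters had the markers Chodl and Nos1, while in cortex 1 of 4 had Chodl (140 of 502 cells), with 30.3 ± 5.54 CPM of Htr7 and 11.5 ± 8.7 of Htr2c in 4 pools. Htr1a in Sst-like cells and Htr1b in smooth muscle-like cells did not pass (edgeR adjusted p = 0.089 and 0.335). An interaction of region and stage, tested by edgeR only, was called in 0 of 7 tests (0.0219% of all genes), with 2 unadjusted p under 0.05.

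The other genes of serotonin signalling were taken as a list of further receptors, enzymes, transporters, G proteins, effectors and receptor partners. Against the mean of logs 329 of 714 tests of 34 genes were higher and 160 lower in cortex, where 34.1% and 18.5% of all genes were, and 245 and 130 of 646 in striatum, where 32.4% and 18% of all genes were. The list's median was 0.21 in cortex and -0.01 in striatum on the log2 scale, and the median of all genes lay at -0.58 to 0.16 and -0.72 to 0.25 over the types. Ddc, which makes serotonin from its precursor, was higher in endothelial-like cells than in the summed other types by 7.36 log2 units (SE 0.22, edgeR adjusted p = 4.7e-21) in cortex and 6.56 log2 units (SE 0.18, edgeR adjusted p = 5.3e-50) in striatum. The serotonin transporter Slc6a4 and the neuronal synthesis enzyme Tph2 had 53 and 430 UMIs in all cells. By stage 0 of 318 list tests were called by edgeR in each striatal contrast. In cortex S100a10, an adaptor known to bind Htr1b and Htr4, was called in astrocyte-like cells, higher in early than in control pools by 2.63 log2 units (SE 0.44, edgeR adjusted p = 1.9e-06) and lower in late than in early pools (-2.36, edgeR adjusted p = 0.021). Each contrast had 430 list tests, and late against control gave 0 calls. Its CPM were 16.5 and 13.8 in the control, 21.3 and 155 in the early, and 25.5 and 10.5 in the late pools. Both calls were lost without early pool 2, at 0.80 and -0.50 log2 units (edgeR adjusted p = 1.000 and 0.999). DESeq2 made neither call. In reporter-positive cells 4 of 140 cortical and 2 of 76 striatal tests were higher and 0 lower (0.932% and 0.219% of all genes called in either direction), of Gnas (the stimulatory G protein), Rgs4 and S100a10, and each of these 6 calls was lost under 5 to 9 alternatives, by edgeR with a pool left out among them. Their differences were 0.11 to 0.59 in log2 and kept their direction where lost, except that Gnas in D1-like cells turned from 0.51 to -0.08 with at least 2 reporter UMIs (edgeR adjusted p = 0.972).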

How the data were processed

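Single-cell RNA-seq UMI counts per gene and barcode were deposited by the authors as unnormalized matrices. Cell Ranger 3.1.0 and GRCm38 are named per the submitters' processing notes, and the matrix headers name software 3.0.2. Barcodes under 500 genes or 1000 UMIs, or over 20% mitochondrial UMIs, were dropped, and presumed doublets (5103, 0.8% per 1000 barcodes) were removed. Cells were clustered per region with scanpy 1.11.5 (2000 variable genes, 40 components, Leiden resolution 1.5, then 1 within neuron classes), without the 14 receptor genes. Clusters were named from textbook markers by rules adjusted after seeing the clusters. UMIs were summed per pool and type (at least 20 cells) and tested with edgeR 4.0.16 (quasi-likelihood, TMM, filterByExpr, Benjamini-Hochberg over all genes, R 4.3.3). Pool was a block for types, hemispheres and reporter, and chemistry class a covariate for stage and region. The SE of an edgeR difference was calculated back from the test, as the size of the log2 change over the square root of its F statistic. DESeq2 1.42.0, other filters, thinning, left-out pools and, added later, a summed reference for types were alternatives, and the tests were checked on simulated data. The members and lists were chosen with earlier results of these data known. All 9 members are named, with the 3 most alike genes considered for each and at most 4 list genes per comparison.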

Additional observations from a re-analysis of the deposited data

Results flagged for a closer look

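Htr6 in astrocyte-like cells of motor cortex had 1 pool far from the others. Control pool 1 stood at 0 CPM in 104 astrocyte-like cells, and the next lowest pool at 6.55 CPM. This was the one such value among 18 sets of pools examined, and chance alone marks about 1 set in 20. The level rests on 46 UMIs over all pools. In the astrocyte-like cells of control pool 1, 3 UMIs of another gene, S100a10, made 16.5 CPM. Fewer than 3 UMIs of Htr6 would thus have closed the gap to the next pool.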

How the results depend on the processing

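All calls are edgeR counts of receptor tests unless another tool is named. Tests by cell type numbered 61 higher in cortex and 30 in striatum. With cells thinned to 1000 UMIs they numbered 30 and 16, with fewer tests possible (84 and 57). Leaving out each pool gave 53 to 60 in cortex and 17 to 30 in striatum. There, leaving out control pool 2 (17), early pool 1 (18) or early pool 2 (18) left fewer types and receptors to test, and every higher call that could still be tested stayed called. DESeq2 kept 51 of 61 cortical and 27 of 30 striatal calls. Of those lost, 2 cortical and 1 striatal turned to a negative difference that was not called, such as Htr1a in near-projecting-like cells (0.96 to -0.41 in log2). With thinned cells, and with at least 50 cells per sum, 1 cortical call each turned in this way. Between regions, 2 calls became 1 with more presumed doublets removed (Htr7 was then not tested) and 8 of 57 with no filter on low counts, and 2 to 3 with a pool left out. The striatal reporter comparison gave 1 call, Htr1b higher in positive D1-like cells, when these had to hold at least 2 reporter UMIs. The striatal late against control comparison gave 0 to 1 with a pool left out, the 1 call coming without control pool 1 or without late pool 1, where 1 pool a stage is compared and assumed to vary like the early pools. In the other cases the cause was not tested. With the replicate block in the stage fits, and with no replicate block in the hemisphere and reporter fits, the count of calls was 0 in all 10 comparisons, as in the main fits. Pool numbers follow accession order, and of the pools that the block joins within a region only control pool 1 and late pool 1 shared a batch. Against the sum of the other types the higher calls numbered 33 and 23 (of 164 and 141 tests). The top types followed by setting, picked for the highest mean levels in these same data, kept their direction under every alternative run. Types picked in this way tend to stay above the others, so this does not measure how stable the calls are. In cortex the 7 lower calls, all of Htr2a (-4.45 to -0.96 in log2), were lost with the strict cell filter, with thinned cells, without early pool 1 and without early pool 2. Their differences stayed negative there (-6.26 to -0.65), with standard errors from 1.86 to 6.25e+06. The larger of these come from fits that gave no usable test. The macrophage-like call was made in 2 of 14 alternatives, and the Vip-like call was also lost without late pool 1 or 2. The summed reference, and leaving out both motor cortex control pools, were chosen after seeing the data. Htr4, Htr6 and striatal Htr7 rest on few UMIs, which limits what a difference between types or stages could show.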

Other observations

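Some cells with high receptor levels lay outside the tested types. In dorsal striatum, GABAergic interneurons that no marker set named held 118 ± 54.5 CPM of Htr3a (SD, n = 6), with 211 and 111 in the control, 65.1 and 73.1 in the early, and 149 and 96.5 in the late pools, and 128 ± 40.7 CPM of Htr2c. They lay in sub-cluster 5 (212 cells, led by Sema3d, Chrna3 and Trh), with 98.3 ± 22 CPM of Htr3a in 4 pools, and in sub-cluster 6 (185 cells, led by genes including Rspo1, Trh and Th), with 199 ± 11.3 in 2 pools. Th encodes the enzyme that limits dopamine synthesis and Trh the precursor of thyrotropin-releasing hormone. In motor cortex, glutamatergic neurons that no marker set named held 75.8 ± 6.86 CPM of Htr2a (n = 6), with 81.1 and 79.5 in the control, 64.5 and 71.7 in the early, and 75.3 and 82.8 in the late pools.

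Among receptor genes outside the 9 members, Htr1d was higher in fibroblast-like cells of motor cortex than in the summed other types by 7.39 log2 units (SE 0.38, edgeR adjusted p = 2.0e-82), and Htr5b in ependymal-like cells of dorsal striatum by 6.67 log2 units (SE 0.35, edgeR adjusted p = 1.7e-28).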
